A study of Mus musculus with 12 samples.

Results

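Kupffer cell and myeloid genes were followed through ribosome profiling of mouse liver. The list held 33 gene symbols, 5 that mark resident Kupffer cells (Marco, Clec4f, Timd4, Cd5l and Vsig4) and 28 grouped as general myeloid. That group is mixed, since Spic belongs to macrophages and hepatocytes also express Hmox1. The members were the rows with the 33 symbols. The table held 32 of the 33 (Itgam was not analysed here), that is 5 resident Kupffer genes and 27 general myeloid genes among 11587 genes, with 56 of its 26260 transcripts. Livers came from 3 Maf1 KO mice (KO1, KO2 and KO4), which lack the RNA polymerase III repressor MAF1 in the whole body, and from 3 wild-type mice (WT1, WT2 and WT3). All 6 were C57BL/6 mice labelled as 12 to 14 weeks old and refed (the study's methods describe feeding ad libitum), and they were killed at 9 PM. Each liver gave a ribosome footprint library (fragments of mRNA protected by ribosomes from RNase I) and a total RNA library from the same lysate, 12 libraries in all, so hepatocytes and all other liver cells were measured together. A gene's score was the mean over its transcripts of the deposited log2 normalized tag count, and subtracting a mouse's total RNA score from its footprint score gave translation efficiency. Depth is unknown because the table holds no counts.

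Kupffer cells are the macrophages that live in the sinusoids of the liver, where they clear particles, dying cells and old erythrocytes from the blood. They depend on the growth factor receptor CSF1R and on transcription factors of the PU.1 type, and they are known by surface receptors such as CLEC4F, TIMD4 and VSIG4. Macrophages in general carry scavenger receptors, Fc receptors that signal through small adaptor proteins, a phagocyte oxidase and a large set of lysosomal enzymes, and they make the complement component C1q. In whole liver, hepatocytes supply most of the RNA, so transcripts of these cells are a small part of each library.

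Before the genotypes were compared, the scores were read against the name of the gene list. All 5 resident Kupffer genes had rows, and scaled by coding length (score minus log2 of the longest coding sequence in kilobases) Cd5l averaged 12.22 in Maf1 KO mice and 11.79 in wild-type mice, and Clec4f averaged 11.85 in Maf1 KO mice and 11.47 in wild-type mice. On that scale only Lyz2, Tyrobp and C1qa among the other 30 members reached the wild-type level of Clec4f. Of markers of blood leukocytes the table held few: 1 of 10 monocyte genes, 1 of 13 neutrophil genes, 1 of 15 T and NK cell genes and 1 of 10 B and plasma cell genes. Ly6c2, Ccr2, S100a8 and S100a9, which define monocytes and neutrophils, were not among the genes analysed here.

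The promoters of the 3 members that passed the test below are printed here because PU.1, the master regulator of macrophages, binds purine-rich sites around the letters GAGGAA. Each run is the 250 bases before the most upstream RefSeq start of the gene on its own strand (GRCm38.p6), with GAGGAA and its reverse complement TTCCTC in capitals.
Marco (chr1:120505025-120505274, minus strand): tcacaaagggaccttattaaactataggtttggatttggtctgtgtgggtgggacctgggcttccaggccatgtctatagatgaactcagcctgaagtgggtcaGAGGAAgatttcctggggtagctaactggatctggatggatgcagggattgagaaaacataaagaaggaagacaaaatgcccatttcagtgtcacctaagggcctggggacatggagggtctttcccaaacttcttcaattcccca
Cd300e (chr11:115062040-115062289, minus strand): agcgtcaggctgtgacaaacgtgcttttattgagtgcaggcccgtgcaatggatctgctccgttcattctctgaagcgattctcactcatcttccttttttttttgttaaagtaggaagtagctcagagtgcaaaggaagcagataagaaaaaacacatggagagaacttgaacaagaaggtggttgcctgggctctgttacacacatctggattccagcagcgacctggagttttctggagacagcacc
Siglece (chr7:43660162-43660411, minus strand): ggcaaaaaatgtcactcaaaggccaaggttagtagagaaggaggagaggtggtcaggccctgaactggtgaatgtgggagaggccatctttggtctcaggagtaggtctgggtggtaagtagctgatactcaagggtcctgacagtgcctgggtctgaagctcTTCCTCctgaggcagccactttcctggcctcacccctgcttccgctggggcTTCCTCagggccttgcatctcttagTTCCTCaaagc
Marco had 1 match 146 bases before its start, Siglece had 3 matches 87, 36 and 11 bases before its start, and Cd300e had none in this window. Of the 32 members, 25 had a RefSeq promoter, and 14 of the 25 (56.0%) held GAGGAA on either strand, against 23.1% of 27025 promoters of the same length. TGTGGT, the core bound by RUNX factors, was in 4 of the 25 (16.0%), against 14.2% of all promoters. TTGCGCAA, the palindrome bound by C/EBP factors, was in 0 of the 25, against 0.2% of all promoters. The motifs do not overlap in the printed runs, and a match is a description of letters, not of binding.

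In total RNA the members stood higher in Maf1 KO mice than in wild-type mice as a group. Of 32 members, 31 had a log2 difference above 0, with a median of 0.52 (0.43 for the 5 resident Kupffer genes and 0.52 for the 27 general myeloid genes), against 5844 of 11587 genes above 0 and a median of 0.00 over all genes. The difference lay above the 90th percentile of all genes in 26 of the 32. In 18 members all 3 Maf1 KO mice lay above all 3 wild-type mice, where 4.07% of all genes did so. After each library was centred on its median, 20 members did so, where 6.92% of all genes did. More cells of a type and more RNA per cell of that type cannot be told apart in bulk liver.

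**Figure D1:**
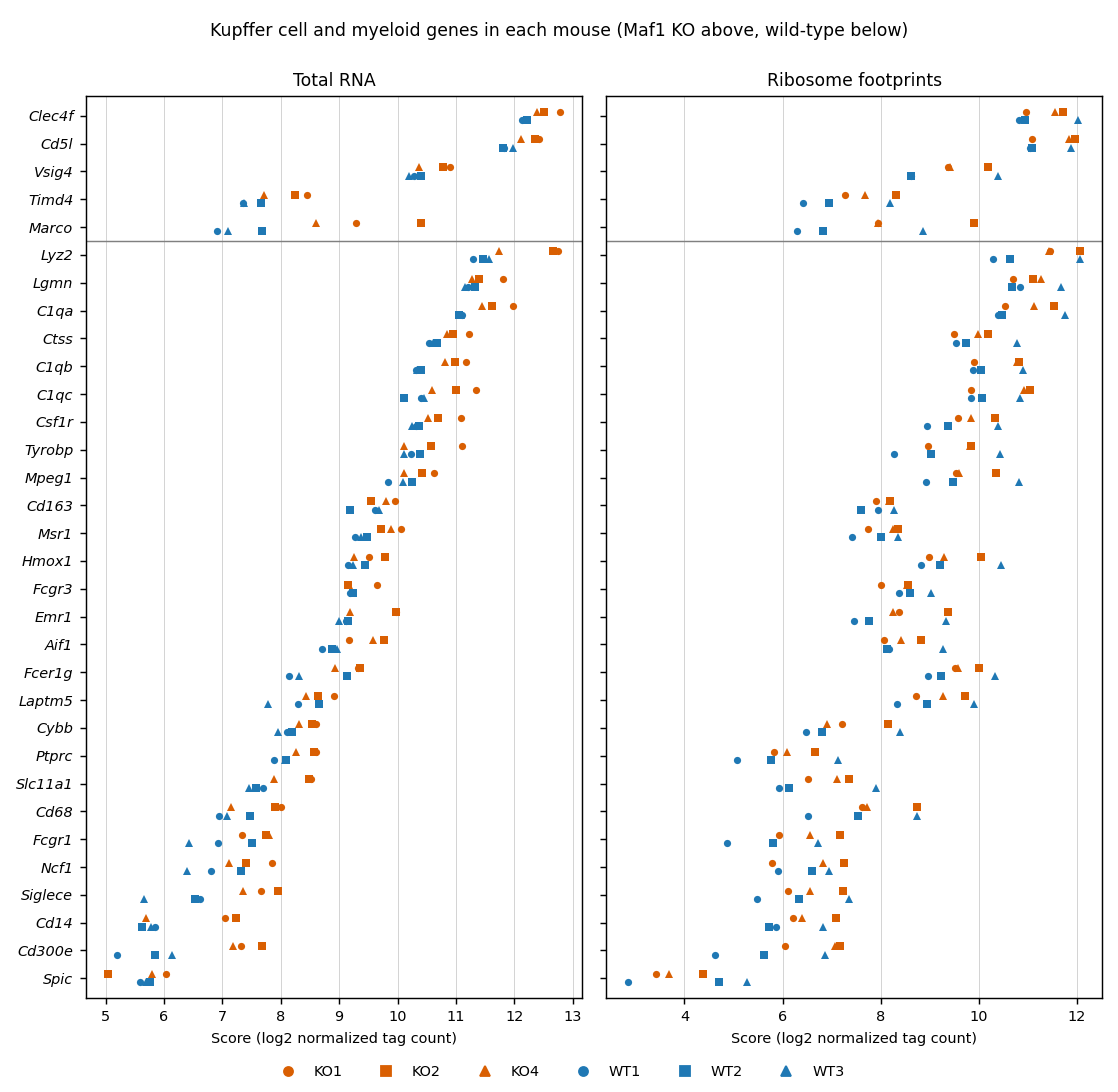
Score (log2 normalized tag count) of each of the 32 members in total RNA (left) and ribosome footprints (right), with the resident Kupffer genes above the grey line. Orange symbols are the Maf1 KO mice and blue symbols below them the wild-type mice. In total RNA the 3 orange symbols lie to the right of all blue ones in 18 members, and in footprints the blue triangle, WT3, lies to the right of all orange symbols in 23.

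Limma's test with Benjamini-Hochberg adjustment over 11587 genes called 3 members, Marco, Cd300e and Siglece, all higher in Maf1 KO mice, where 0.173% of all genes were called higher. At an unadjusted p under 0.05 it gave 15 members, all higher, where 2.5% of all genes were. Marco, a scavenger receptor of macrophages that binds bacteria and particles, had total RNA scores of 9.29, 10.40 and 8.61 in Maf1 KO mice, against 6.90, 7.68 and 7.09 in wild-type mice. The groups did not overlap, and KO2 was well above the other Maf1 KO mice. The difference was 2.21 ± 0.28 on the log2 scale (SE, n = 3 each), or 4.62-fold (limma adjusted p = 4e-11).

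Cd300e, described in human as an activating receptor of monocytes and macrophages, scored 7.32, 7.68 and 7.18 in Maf1 KO mice, against 5.20, 5.85 and 6.13 in wild-type mice. On the deposited scale all 3 Maf1 KO livers lay at least 1 log2 unit above the highest wild-type liver. After each library was centred the gap was smaller, with KO1 at -2.02 and WT3 at -2.70. The difference was 1.67 ± 0.32 (SE), or 3.18-fold (limma adjusted p = 0.000386). Siglece, an inhibitory receptor of myeloid cells for sialic acid, scored 7.67, 7.95 and 7.35 in Maf1 KO mice, against 6.62, 6.54 and 5.65 in wild-type mice, again without overlap. The difference was 1.39 ± 0.31 (SE), or 2.62-fold (limma adjusted p = 0.00551). The levels of both genes were low, at percentiles 10.3 and 15.4 of all genes.

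Whether these 3 genes were called depended on the scaling of the libraries and on which mice were included. Centring each library on its median left the differences at 2.19, 1.65 and 1.37 but raised the adjusted p to 0.195, 0.195 and 0.225, and no member passed, where 0.0173% of all genes were called higher (22 members had an unadjusted p under 0.05, all higher, where 4.7% of all genes did). Without KO1 no member passed, without KO2 only Marco did, and without WT1 or WT3 the number was 2. The differences without KO1 were 2.28, 1.71 and 1.38, and that fit called 1 gene over all genes, against 32 with all mice. In the deposited scores limma's prior degrees of freedom were infinite, so every gene of a given level got the same SE. The spread of Marco among the Maf1 KO mice (SD 0.90) therefore did not widen its SE of 0.28, which was 0.42 after centring.

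The other resident Kupffer genes differed less. Timd4, a receptor for phosphatidylserine on dying cells, scored 8.45, 8.25 and 7.72 in Maf1 KO mice, against 7.35, 7.67 and 7.37 in wild-type mice, a difference of 0.68 ± 0.29 (SE, limma adjusted p = 1.0). The lowest Maf1 KO liver lay just above the highest wild-type liver. Clec4f, a lectin found on Kupffer cells of mice, scored 12.78, 12.51 and 12.39 in Maf1 KO mice, against 12.13, 12.21 and 12.21 in wild-type mice, a difference of 0.38 ± 0.25 (SE). On the deposited scale its wild-type scores were the tightest of the 5 genes (SD 0.05, n = 3). After centring, those of Vsig4 (1.29 to 1.37) lay closer together than those of Clec4f (3.12 to 3.38). Cd5l, a secreted macrophage protein also called AIM, scored 12.43, 12.35 and 12.11 in Maf1 KO mice, against 11.82, 11.81 and 11.98 in wild-type mice, a difference of 0.43 ± 0.25 (SE). Vsig4, the complement receptor CRIg, scored 10.90, 10.78 and 10.37 in Maf1 KO mice, against 10.29, 10.41 and 10.20 in wild-type mice, a difference of 0.38 ± 0.26 (SE). Of these 4 genes, only Vsig4 had groups that overlapped on the deposited scale, and none passed the adjusted test. After centring, the groups of Vsig4 did not overlap and those of Cd5l did (KO1 at 3.08 and WT3 at 3.15).

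A difference between members of the same library is not affected by how libraries are scaled. Marco minus Clec4f in total RNA was -3.49, -2.11 and -3.78 in Maf1 KO mice, against -5.23, -4.53 and -5.11 in wild-type mice, a mean change of 1.83 log2 units. The same subtraction gave means of -4.42 ± 0.22 in Maf1 KO mice and -4.72 ± 0.16 in wild-type mice for Timd4 (SD, n = 3 each). For Vsig4 both means were -1.88, and for Cd5l they were -0.27 in Maf1 KO mice and -0.31 in wild-type mice, within 1 SD of each other. Thus in total RNA Marco stood apart from the other resident genes. There the proportions of Vsig4 and Cd5l to Clec4f differed little between genotypes, and that of Timd4 changed by 0.30 with groups that overlapped. Cd300e minus Clec4f averaged -5.17 ± 0.32 in Maf1 KO mice and -6.46 ± 0.43 in wild-type mice, and Siglece minus Clec4f averaged -4.91 ± 0.30 in Maf1 KO mice and -5.91 ± 0.56 in wild-type mice. In footprints the same subtraction gave changes of 1.12 for Marco, 0.43 for Timd4, 0.30 for Vsig4 and 0.14 for Cd5l. Marco's groups overlapped there, with KO4 at -3.61 and WT3 at -3.16. The footprint changes of Cd300e and Siglece were 0.91 and 0.11. These comparisons were chosen after the values were seen and carry no test.

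Lysozyme, Lyz2, which digests bacterial cell walls, was the member next to the threshold. It scored 12.74, 12.66 and 11.74 in Maf1 KO mice, against 11.29, 11.46 and 11.57 in wild-type mice, a difference of 0.94 ± 0.25 (SE, limma adjusted p = 0.0539). KO4 was close to the wild-type livers, and without KO4 the adjusted p was 0.0179, whereas without any other single mouse it lay between 0.224 and 0.909. The neighbouring and nearly identical Lyz1, a gene outside the list named after its values were seen, had a difference of 0.92 ± 0.26, and how reads were shared between the 2 copies is not stated. Ctss and Lgmn, lysosomal proteases of antigen-presenting cells, had differences of 0.40 and 0.26, and Laptm5 and Cd68, lysosomal membrane proteins of leukocytes and macrophages, had 0.42 and 0.52.

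The 3 chains of C1q, the first component of the classical complement pathway, had similar differences. C1qa scored 11.97, 11.62 and 11.45 in Maf1 KO mice, against 11.11, 11.06 and 11.08 in wild-type mice, C1qb averaged 10.99 ± 0.18 in Maf1 KO mice and 10.35 ± 0.05 in wild-type mice, and C1qc averaged 10.98 ± 0.38 in Maf1 KO mice and 10.32 ± 0.19 in wild-type mice (SD, n = 3 each). The differences were 0.60, 0.64 and 0.66, with unadjusted p values from limma of 0.0172, 0.0123 and 0.0106 and no overlap of the groups. The genes lie side by side on chromosome 4 (C1qb 136436044 to 136442102, C1qc 136445719 to 136448980 and C1qa 136451832 to 136454718, NCBIM37, minus strand), and each entered with 1 transcript.

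Among receptors, Csf1r, the receptor for the macrophage growth factors, scored 11.08, 10.69 and 10.53 in Maf1 KO mice, against 10.32, 10.36 and 10.24 in wild-type mice (difference 0.46). Emr1, which encodes the macrophage antigen F4/80, scored 9.98, 9.97 and 9.19 in Maf1 KO mice, against 9.12, 9.16 and 9.00 in wild-type mice (difference 0.62). In both genes the groups were free of overlap, though for Emr1 KO4 lay barely above WT2. Cd14, the co-receptor for bacterial lipopolysaccharide, scored 7.04, 7.23 and 5.69 in Maf1 KO mice, against 5.85, 5.63 and 5.78 in wild-type mice (difference 0.90). Its difference came from KO1 and KO2, since KO4 lay within the wild-type range. The scavenger receptors Msr1 and Cd163 (Cd163 takes up haemoglobin) had differences of 0.52 and 0.27, and Ptprc, the leukocyte antigen CD45, had 0.46.

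The Fc receptor genes had groups that overlapped. Fcgr1, the high-affinity receptor for IgG, averaged 7.62 ± 0.25 in Maf1 KO mice and 6.95 ± 0.53 in wild-type mice (SD, n = 3 each, difference 0.67, and 0.42 without WT3), and Fcgr3, a low-affinity receptor, averaged 9.32 ± 0.28 in Maf1 KO mice and 9.22 ± 0.03 in wild-type mice (difference 0.10). Fcer1g and Tyrobp, the adaptors through which Fc receptors and other receptors of these cells signal, had differences of 0.67 and 0.35. The phagocyte oxidase subunits Cybb and Ncf1 had 0.40 and 0.61. Of these 6 genes only Cybb had groups without overlap on the deposited scale. After centring Ncf1 did as well, though barely, with KO4 and WT2 both at -1.72 when rounded. Fcgr3 has close relatives in its gene family, and how reads were shared among them is not stated.

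Slc11a1, a metal transporter of the phagosome, scored 8.52, 8.48 and 7.88 in Maf1 KO mice, against 7.70, 7.58 and 7.45 in wild-type mice, a difference of 0.72 ± 0.29 (SE). Aif1, an actin-binding protein of macrophages also called IBA1, scored 9.17, 9.76 and 9.58 in Maf1 KO mice, against 8.71, 8.88 and 8.96 in wild-type mice (difference 0.65). Mpeg1, a pore-forming protein that acts on ingested bacteria, had a difference of 0.33, and Hmox1, the inducible haem oxygenase that hepatocytes also express, had 0.24. The smallest value belonged to Spic, the transcription factor of macrophages that recycle red cell iron, which averaged 5.63 ± 0.52 in Maf1 KO mice and 5.68 ± 0.09 in wild-type mice (SD, n = 3 each, difference -0.05). Spic was also the lowest member in level, at percentile 1.8 of all genes. Leaving out 1 mouse moved the total RNA difference by over 1.5 times in 13 of the 32 members, none of them called or resident Kupffer genes. Without KO1 it was 0.09 for Tyrobp, 0.11 for Lgmn, 0.30 for Csf1r and 0.21 for Mpeg1 and was -0.06 for Fcgr3, and without WT3 it was 0.19 for Laptm5 and 0.39 for Ncf1. Without KO4 it was 0.80 for Cd68, 1.38 for Cd14 and 0.38 for Hmox1, without WT2 it was 0.12 for Cd163, and for Spic it was 0.24 without KO2.

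**Figure D2:**
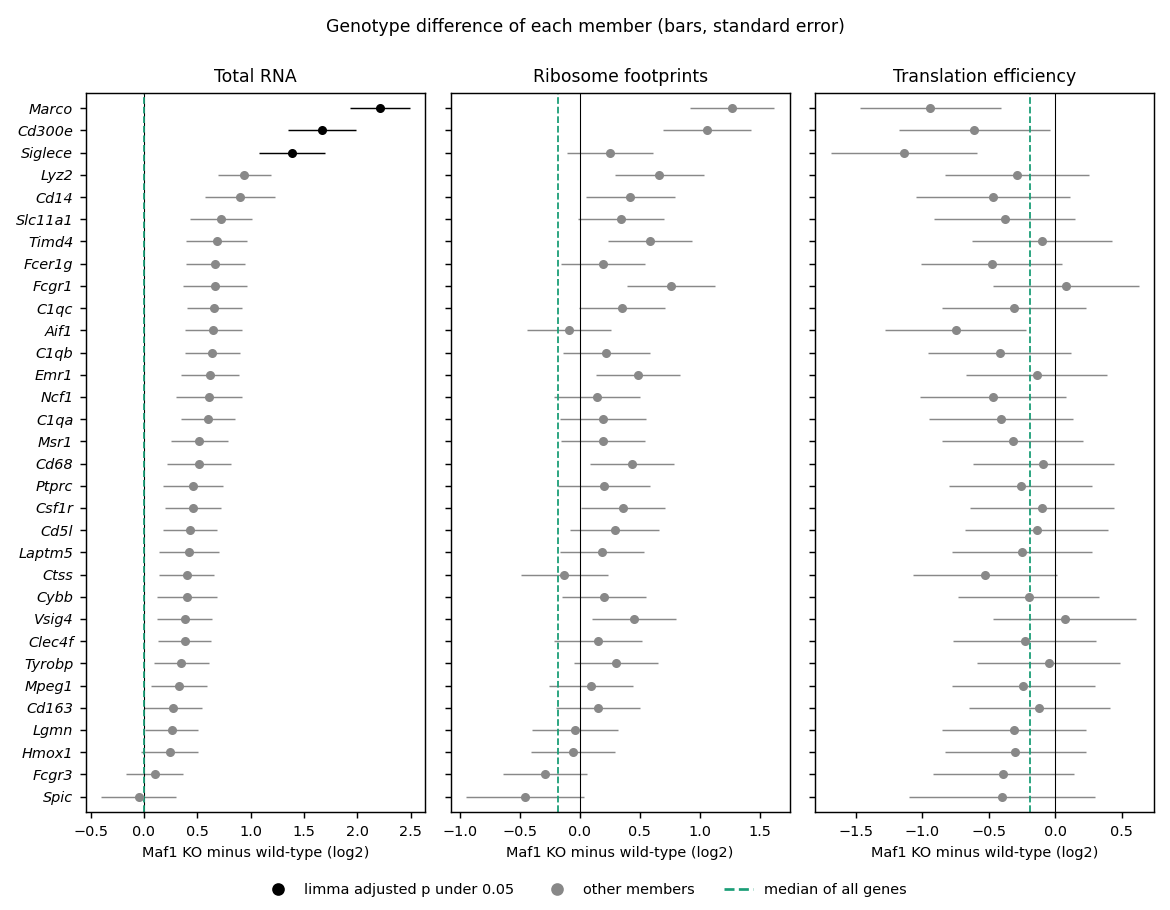
Maf1 KO minus wild-type difference of each member (log2 scale, points, with the standard error from limma as bars) in total RNA, ribosome footprints and translation efficiency, ordered by total RNA. Black points passed limma's adjusted test, grey points did not, and the dashed green line is the median over all genes (0.00, -0.18 and -0.19). Marco, Cd300e and Siglece stand at the top in total RNA, and Siglece is the lowest in translation efficiency.

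The 3 Maf1 KO livers were not alike. On the deposited scale KO1 was the highest of the 6 mice in 24 members, but its total RNA library also had the highest median over all genes (9.34, against 8.75 to 9.04 in the other 5 libraries). After centring, KO2 was the highest mouse in 28 of 32 members and KO1 in 0. The median centred score of the members was 0.24, 0.98 and 0.39 in Maf1 KO mice, against 0.13, 0.14 and 0.29 in wild-type mice. When KO2 was left out of the centred libraries, 31 of 32 members still had a difference above 0, with a median of 0.36 in place of 0.50, and the 2 remaining Maf1 KO livers lay above all wild-type livers in 20 members, where 10.2% of all genes did so. The median SD of a member among the Maf1 KO livers was 0.28 after centring, against 0.17 among the wild-type livers, and over all genes it was 0.19 in Maf1 KO mice and 0.17 in wild-type mice.

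In footprints the members again had mostly positive differences, but no member passed the adjusted test, where 0.0345% of all genes were called higher. Limma gave 3 members an unadjusted p under 0.05 (all higher, where 0.406% of all genes were), and its fits with a common prior or with robust estimation gave 2 each. The difference was above 0 in 26 members and below 0 in 6, with medians of 0.45 for the resident Kupffer genes, 0.20 for the general myeloid genes and -0.18 over all genes. In 0 members did all Maf1 KO mice lie above all wild-type mice, where 0.423% of all genes did so. After centring, which moved the median of all genes to 0.01, the medians were 0.64 and 0.39, 30 members were above 0, and the groups were free of overlap in 6 members (Cd5l, Fcgr1, Msr1, Cd14, Cd163 and Cd300e), where 4.83% of all genes were.

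A single library weighed on the footprint comparison. WT3 had the highest footprint score of the wild-type mice in all 32 members on the deposited scale and in 28 after centring. Its footprint library had the highest median over all genes (8.02, against 7.17 to 7.57 in the other 5) and the lowest agreement with the other wild-type footprint libraries (Pearson r across genes 0.965 and 0.974, against 0.979 between WT1 and WT2). Its excess in the members went beyond that shift. After centring, WT3 lay above the mean of WT1 and WT2 in 30 of 32 members by a median of 0.75, where 52.5% of all genes lay above. In total RNA of the same mouse the median excess was 0.16.

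Marco footprints scored 7.94, 9.91 and 7.94 in Maf1 KO mice, against 6.30, 6.82 and 8.86 in wild-type mice. WT3 was thus above KO1 and KO4, while WT1 and WT2 were the lowest mice. The difference was 1.27 ± 0.35 (SE, limma adjusted p = 0.195). Without WT3, which left WT1 and WT2, it was 2.04 (adjusted p = 1.69e-07). It was 0.61 without KO2 (adjusted p = 0.998) and 0.75 without WT1 (adjusted p = 0.849). As in total RNA, the SE of 0.35 was that of genes of this level. It did not measure Marco's own spread (SD 1.14 in Maf1 KO mice and 1.35 in wild-type mice), and after centring it was 0.57. Cd300e scored 6.06, 7.17 and 7.07 in Maf1 KO mice, against 4.62, 5.62 and 6.87 in wild-type mice, a difference of 1.06 ± 0.37 (adjusted p = 1.0) of 1.65 without WT3 (adjusted p = 0.000618) and of 0.52 without WT1 (adjusted p = 0.849). Over all genes, 53 were called in footprints without WT3, against 10 with all mice. When the libraries were centred and WT3 was left out, no member passed in footprints. Siglece scored 6.12, 7.24 and 6.57 in Maf1 KO mice, against 5.48, 6.33 and 7.36 in wild-type mice. Here WT3 was the highest of all 6 mice, and the difference was 0.25 ± 0.36.

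Timd4 footprints scored 7.28, 8.31 and 7.69 in Maf1 KO mice, against 6.42, 6.94 and 8.19 in wild-type mice (difference 0.58), and Vsig4 footprints scored 9.37, 10.19 and 9.41 in Maf1 KO mice, against 8.62, 8.62 and 10.39 in wild-type mice (difference 0.45). Both genes repeated the order seen for Marco, with WT1 and WT2 lowest and WT3 among the Maf1 KO mice or above them. Clec4f averaged 11.41 ± 0.39 in Maf1 KO mice and 11.26 ± 0.66 in wild-type mice, and Cd5l averaged 11.62 ± 0.47 in Maf1 KO mice and 11.33 ± 0.46 in wild-type mice (SD, n = 3 each). The lowest footprint difference of the members was that of Spic, -0.46 ± 0.49 (SE), at scores of 2.86 to 5.28.

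The footprint counts moved with several mice. Without WT3 31 of 32 members were above 0 with a median of 0.64 (all genes 0.02), and in 29 of 32 members all centred Maf1 KO scores lay above WT1 and WT2, where 11.8% of all genes did so. Without WT1 only 13 members were above 0 with a median of -0.07 (all genes -0.32), and without KO2 18 were, with a median of 0.07 (all genes -0.25).

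**Figure D3:**
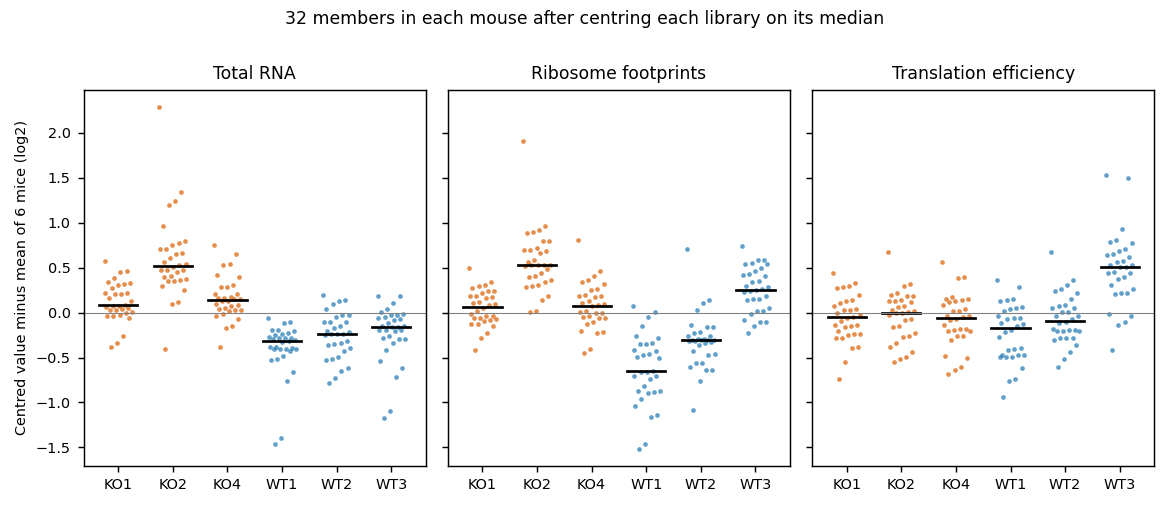
Each point is 1 of the 32 members, plotted as its value in a mouse minus its mean over the 6 mice after each library was centred on its median (log2 scale), and the black line is the median of the members. KO2 stands highest in total RNA and footprints, WT3 lies close to the other wild-type mice in total RNA, and in footprints and translation efficiency it lies above them.

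In translation efficiency no member passed the adjusted test, where 0.00863% of all genes were called. Limma gave 1 member, Siglece, an unadjusted p under 0.05 (lower, where 0.604% of all genes were), and the fit with library type and genotype as interacting factors also called 0. On the deposited scale 30 of 32 members were lower in Maf1 KO mice, with a median of -0.30, but 9297 of 11587 genes were lower as well, with a median of -0.19. After centring 22 members were lower, with a median of -0.10 (all genes 0.02). In 1 member, Aif1, all Maf1 KO mice lay below all wild-type mice (-1.11, -0.94 and -1.17 in Maf1 KO mice, against -0.54, -0.75 and 0.31 in wild-type mice), where 2.09% of all genes did so on the deposited scale and 3.5% after centring, when Ctss was the 1 member.

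Siglece had translation efficiencies of -1.56, -0.70 and -0.77 in Maf1 KO mice, against -1.13, -0.21 and 1.71 in wild-type mice, a difference of -1.14 ± 0.55 (SE, unadjusted p = 0.0402 and adjusted p = 1.0, limma). Marco had -1.35, -0.49 and -0.68 in Maf1 KO mice, against -0.61, -0.85 and 1.77 in wild-type mice, a difference of -0.94 ± 0.53. In both genes WT1 lay within the range of the Maf1 KO mice and WT3 stood far above it. Cd300e had a difference of -0.61 ± 0.57, Clec4f -0.23 ± 0.54, Cd5l -0.14 ± 0.54, Timd4 -0.10 ± 0.53 and Vsig4 0.07 ± 0.54. The largest was that of Fcgr1, 0.08 ± 0.55.

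WT3 had the highest translation efficiency of the 6 mice in 31 of 32 members on the deposited scale and in 25 after centring. After centring its excess over WT1 and WT2 had a median of 0.65 in the members and was above 0 in 27 of 32, where 52.1% of all genes were above 0. Without WT3, 20 members were above 0 and the median difference was 0.09 (all genes 0.08), and without KO1, 16 were above 0 with a median of 0.00 (all genes 0.12). The members' median was thus below that of all genes with all 6 mice and without KO1, and about level with it without WT3. With all 6 mice this came from the general myeloid genes, with a median of -0.31 (-0.10 after centring). The resident Kupffer genes had -0.14 (0.07 after centring), slightly above the -0.19 (0.02 after centring) of all genes.

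Differences in total RNA and footprints went together over the members (Pearson r 0.80 over 32 genes, against 0.39 over 11587 genes). The r is a description over genes of the same 6 mice, which share their libraries. Marco (2.21 and 1.27) and Cd300e (1.67 and 1.06) had the largest differences in both measures, and r without them was not computed.

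Most members were translated above the median gene. After centring and averaged over the 6 mice, 28 of 32 members had a translation efficiency above the median of all genes, the members' median was 0.83, and their median percentile was 79.5. The highest were Fcer1g, 2.05 in Maf1 KO mice and 2.32 in wild-type mice, and Laptm5, 2.11 in Maf1 KO mice and 2.15 in wild-type mice, at percentiles 99.4 and 99.3 of all genes. Cd68 had 1.89 in Maf1 KO mice and 1.77 in wild-type mice. The 4 below the median were Ptprc (-0.74 in Maf1 KO mice and -0.69 in wild-type mice), Cd163 (-0.13 in Maf1 KO mice and -0.22 in wild-type mice), Msr1 (-0.23 in Maf1 KO mice and -0.11 in wild-type mice) and Spic (-0.27 in Maf1 KO mice and -0.07 in wild-type mice). Ptprc and Cd163 have the longest coding sequences of the members (4.02 and 3.48 kb), and Fcer1g has the shortest (0.258 kb). Length did not order the members throughout, since Tyrobp (0.342 kb) stood at percentile 61.6 and Mpeg1 (2.16 kb) at 85.1. In total RNA 18 of the 32 members were above the median gene in level, from Clec4f at percentile 93.0 down to Spic at percentile 1.8.

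**Figure D4:**
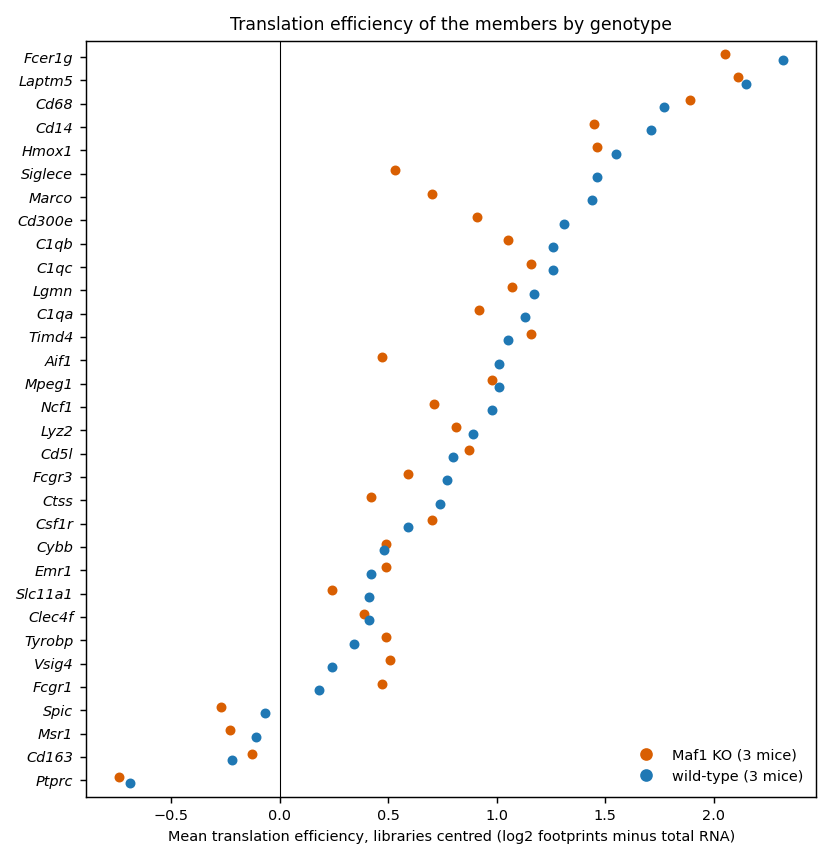
Mean translation efficiency of each member (log2 footprints minus log2 total RNA after each library was centred on its median) in the 3 Maf1 KO mice (orange) and the 3 wild-type mice (blue). 28 of the 32 members lie to the right of 0 when averaged over all mice, from 2.18 for Fcer1g down to -0.71 for Ptprc.

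Other genes of these cells were taken from lists. In none of the lists did limma call a gene in total RNA or footprints, so the genes with the highest total RNA score stand for each. Of 21 further genes tied to Kupffer cells, 18 had rows, 15 were above 0 in total RNA and the median was 0.25, but its most abundant genes, Apoe and C6, are also made by hepatocytes and had 0.03 each. For the M-CSF and PU.1 axis, 11 of 14 genes had rows and 11 were above 0 with a median of 0.35. Here Cebpb had 0.80 (limma adjusted p = 0.222) and Cebpa had 0.07. Both scored above Csf1r in each mouse (at least 12.10, against at most 11.08), and which liver cells supplied their RNA was not tested. For Fc receptor and ITAM signalling, 11 of 12 measured genes were above 0 with a median of 0.42. Here the inhibitory receptor Fcgr2b, which was also on the list of endothelial genes, had 0.15 and the kinase Lyn had 0.06. The other 4 oxidase genes were all above 0 with a median of 0.72, where Rac2 had 0.92 (adjusted p = 0.298) and Cyba had 0.61. In footprints the medians of these 4 lists were -0.07, 0.04, 0.18 and 0.27, against -0.18 over all genes.

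Lists of macrophage functions had medians of 0.04 to 0.31. Of 15 lysosomal genes 11 were above 0 with a median of 0.04, where Ctsb and Ctsl, cathepsins that hepatocytes also express, had 0.13 and -0.02. The 11 Toll-like receptor genes had a median of 0.14, where Nfkbia had 0.48 and Myd88 had 0.04, and the 10 cytokine and chemokine genes had a median of 0.31, where Ccl9 had -0.26 and Il18 had 0.27. The 12 interferon response genes had a median of 0.27, where Irgm1 had 0.34. Over all genes the median was 0.00.

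Markers of other cells moved with the genotype in part. The 14 hepatocyte genes had a median total RNA difference of 0.02, with Alb at 0.15 and Ttr at 0.12, and their summed level was 21.76 to 22.04 on the log2 scale in Maf1 KO mice and 21.37 to 22.13 in wild-type mice. Of 14 stellate cell and fibroblast genes 12 were above 0 with a median of 0.26, with the most abundant, Dcn and Colec11, at 0.11 and -0.03 and a summed level of 13.43 to 13.94 in Maf1 KO mice and 13.43 to 13.72 in wild-type mice. In 4 of the 14 all Maf1 KO mice lay above all wild-type mice in total RNA, where 4.07% of all genes did so. These, named after their values were seen, were the collagen genes Col1a1 (1.05 ± 0.32, SE, limma adjusted p = 0.208), Col1a2 (0.47) and Col3a1 (0.41) and Des (0.34). For Des the margin was narrow, with KO4 at 6.71 and WT3 at 6.70. Their footprint differences were 0.11, 0.04, 0.09 and -0.25. Of 14 endothelial genes 13 were above 0 with a median of 0.16, with Clec4g at 0.31 and Dnase1l3 at 0.18 and a summed level of 13.74 to 14.46 in Maf1 KO mice and 13.70 to 14.01 in wild-type mice. The medians of these lists were below those of the members, and the groups overlapped in summed level in all 3.

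Few blood cell markers had rows. Plac8, the 1 monocyte gene with a row and one also expressed elsewhere, scored 9.68, 10.15 and 9.59 in Maf1 KO mice, against 9.11, 9.18 and 9.07 in wild-type mice, a difference of 0.69 ± 0.27 (SE, limma adjusted p = 0.727). Its groups did not overlap. Lcn2, the 1 neutrophil gene and one that hepatocytes make in inflammation, had 0.23, and Zbtb46 and Clec9a of dendritic cells had 0.10 and 0.40. Cd4 had -0.36, Igj of plasma cells 0.37, and Sox9 and Spp1 of cholangiocytes 0.50 and 0.24. Red blood cell genes ran the other way, with Hba-a2 at -0.36 and Hbb-b1 at -0.58 and a summed level of 14.26 to 14.46 in Maf1 KO mice and 14.14 to 15.33 in wild-type mice, with the wider range among the wild-type livers. The part of stellate, endothelial or blood cells in the members' differences was not tested.

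**Figure D5:**
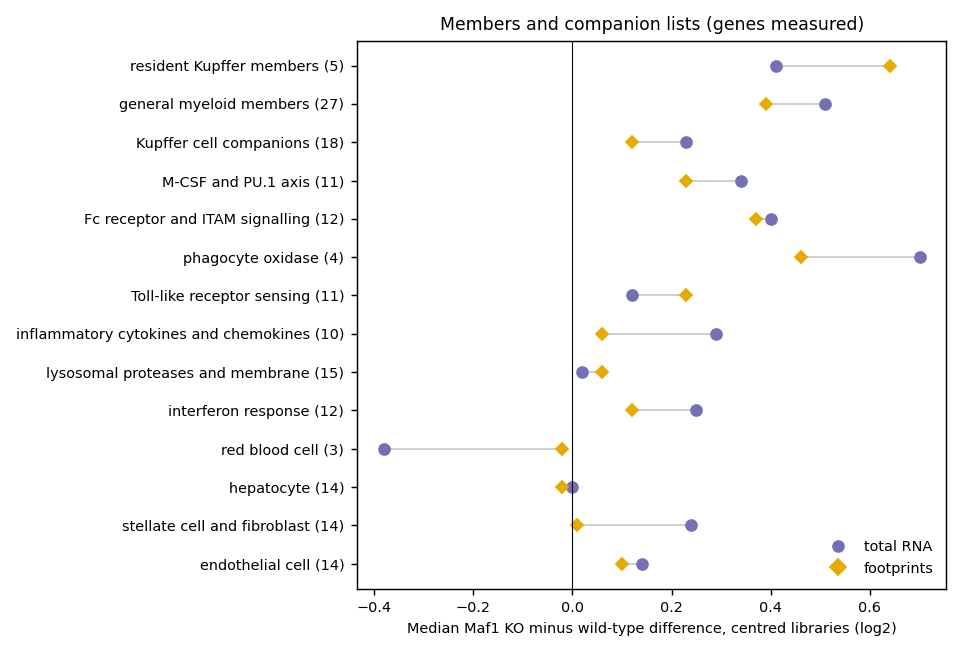
Median Maf1 KO minus wild-type difference (log2, libraries centred on their medians) of the members and of each companion list with at least 3 measured genes, in total RNA (circles) and footprints (diamonds), with the number of genes in brackets. The members lie at 0.39 to 0.64, the phagocyte oxidase list at 0.70 in total RNA, and the hepatocyte list between -0.02 and 0.00.

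Relatives of members, named after their values were seen, did not pass the test. Cd300lf had a total RNA difference of 0.72 ± 0.34, Cd300a 0.37 ± 0.30, Cd300lh 0.15 ± 0.34, Cd300lg 0.11 ± 0.27 and Cd300ld 0.05 ± 0.28 (SE), against 1.67 for Cd300e in the same family. Siglec1, the sialic acid receptor of tissue macrophages, had 0.83 ± 0.29 (limma adjusted p = 0.467), against 1.39 for Siglece. Fcgr4 had 0.82 ± 0.29 and Emr4, a gene next in kind to Emr1, 0.70 ± 0.29. Timd2, in the family of Timd4, went the other way at -0.12 ± 0.25.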

How the data were processed

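Libraries were made from 3 Maf1 KO and 3 wild-type livers, with extract of Drosophila S2 cells added as a spike at 1 part to 15 mouse parts. The authors deposited log2 values, normalized tag counts per transcript scaled by TMM from edgeR on mm9. The study's methods describe a further correction of its scores by the fly spike, but the header does not say whether the fly reads enter the deposited values. Centring a library on its median removes any shift common to all its genes. No source names the aligner. Scores were averaged over the transcripts of a gene, and 0 columns lacked a sample. Genotypes were compared over all 11587 genes with limma 3.58.1 (R 4.3.3, mean-variance trend, Benjamini-Hochberg, threshold 0.05), which was tested on simulated data. Translation efficiency paired the 2 libraries of a mouse. Alternatives were centring, quantile normalization, dropping the lowest 25% of genes, the top transcript, other priors, the replicate number as a block and leaving out mice. Coordinates and coding lengths came from NCBIM37 and promoters from RefSeq GRCm38.p6. The members, lists and named genes (every member in total RNA; in the other measures the resident Kupffer genes, called members and extremes; in each companion list the called genes or else the 2 most abundant) were chosen with earlier results of these data known. The targeted gene was not used as a check of the labels. The value of 1 companion gene that the naming rule selects is not reported here.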

Additional observations from a re-analysis of the deposited data

How the results depend on the processing

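In total RNA, where 3 members were called, centring or quantile normalization gave 0 calls and dropping low genes 1 of 25 members tested. The top transcript, a common prior and robust estimation gave the same 3 genes. Leaving out 1 mouse gave 0 to 4 calls and median differences of 0.36 to 0.54 (resident Kupffer) and 0.42 to 0.59 (general myeloid). Over all genes these fits called 1 to 30, against 32 with all mice. In footprints, where 0 were called, leaving out 1 mouse gave 0 to 2 calls and medians of 0.15 to 1.04 and -0.11 to 0.63. The 2 calls came without WT3, when 53 genes were called over all genes, against 10 with all mice. In translation efficiency all settings gave 0 calls, and leaving out 1 mouse gave medians of -0.42 to 0.20 and -0.57 to 0.04. Genotypes shared only the numbers 1 and 2, and the deviations of same-numbered mice had r of 0.234 and 0.27 in total RNA and -0.061 and 0.097 in footprints, against -0.193 and -0.188 and then -0.076 and -0.346 for different numbers. With under 3 pairs and no label for a shared litter or day, they were taken to share a number only. With the replicate block, which leaves 1 residual degree of freedom, 2 members were called in total RNA and 9 in footprints (292 of all genes), with footprint differences of 2.36 for Marco and 1.49 for Cd300e. 3 alternatives were chosen after seeing the data. Without KO1 and WT3 together, total RNA had 0 calls, footprints a general myeloid median of 0.89, and translation efficiency medians of 0.47 and 0.46. Centred libraries without WT3 gave 0 calls in total RNA, and centred libraries without KO2 gave 0 calls and a general myeloid median of 0.37. The cause of these changes was not tested. Depth is unknown, so no limit from counting can be given.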
